A study of Mus musculus with 8 samples.

Results

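Upper-layer projection neuron identity was followed in the P1 mouse cortex through 9 genes, *Cux1*, *Cux2*, *Pou3f1*, *Pou3f2*, *Pou3f3*, *Rorb*, *Mef2c*, *Inhba* and *Unc5d*. They were taken by name, as markers and regulators of superficial cortical neurons, from the 48709 genes listed for each library. The rule uses no measured value, but the genes were chosen with earlier results of these data known. All 9 genes were found, and all 9 were among the 16287 genes that passed the filter on low counts. The dcKO_Nex-Cre cortex came from C57BL6/J mice with floxed BAF155 and BAF170 (the genes *Smarcc1* and *Smarcc2*) and Nex-Cre, which is active in postmitotic projection neurons. The control cortex came from heterozygous mice (BAF155fl/+, BAF170fl/+) without Cre, so that the Cre allele was carried by the mutant group alone. Total RNA of whole cortical tissue was sequenced in 4 libraries per group at P1. Glia, interneurons and other cells without a history of Nex-Cre activity keep both genes in the mutant and are part of the tissue.

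Neurons of the superficial layers are the last projection neurons to be born, migrate past the deep layers along radial glial fibers, and mostly connect cortical areas with each other. Their identity is built by transcription factors that act from the progenitor to the maturing neuron. POU factors of class III work together in the production and migration of these cells, CUT homeodomain factors shape their dendrites and spines, and nuclear receptor and MADS-box factors act in their later differentiation.

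None of the 9 genes was called between the genotypes at an adjusted p under 0.05 (edgeR's quasi-likelihood test with Benjamini-Hochberg adjustment), where 0.884% of all genes tested were called, 0.375% as higher and 0.510% as lower in the mutant. DESeq2's Wald test, which called 3.16% of its genes, and limma-voom called none of the 9 either. At an unadjusted p under 0.05, 0 of the 9 genes passed with edgeR, against 13.6% of all genes, 0 passed with limma-voom, and 1, *Cux1*, passed with DESeq2's Wald test. The fold changes were small. The 95% interval of every gene lay within 0.5 on the log2 scale in either direction, and the intervals together spanned 72.1% to 133% of the control level. Of the 9 genes, 6 had a log2 fold change above 0, as did 50.9% of all genes tested. The median log2 fold change of the 9 genes was 0.13, beside 0.0043 over all genes. In 1 gene, *Cux1*, every dcKO_Nex-Cre library lay above every control library. Of all genes tested, 3.99% were separate in this way, and 4.01% were separate with the mutant lower. Because whole tissue was sequenced, fewer cells of a type and less RNA per cell cannot be told apart in any of these values.

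**Figure D1:**
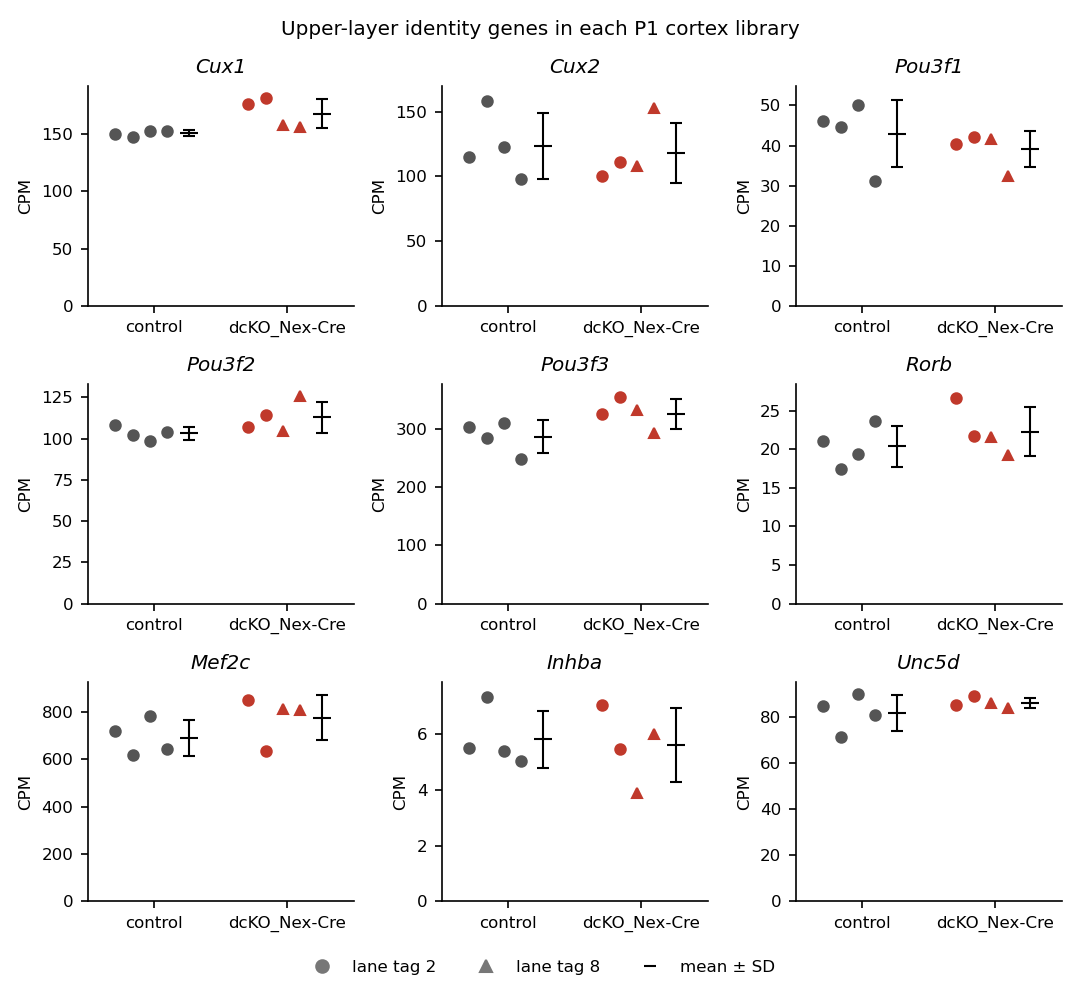
Expression of the 9 upper-layer genes, in CPM (counts scaled to a common library size, vertical axes from 0), in each of the 4 control (grey) and 4 dcKO_Nex-Cre (red) libraries. Circles are libraries of lane tag 2 and triangles are libraries of lane tag 8 (sequencing lane as the names of the count tables give it), and bars give the mean and SD of a group. The groups are separate for *Cux1*, from 148 to 153 CPM against 156 to 181 CPM, and overlap for the other 8 genes.

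Both deleted genes were lower in every dcKO_Nex-Cre library than in any control library. *Smarcc2* fell by 0.81 on the log2 scale (adjusted p = 0.00267, edgeR) and *Smarcc1* by 0.53 (adjusted p = 0.0348, edgeR), to 56.9% and 69.2% of the control level. When each library was dropped in turn, the call of *Smarcc1* held in 2 of 8 cases. Total counts per library were between 17958641 and 35191912. Control replicate 2 and dcKO_Nex-Cre replicate 4 had the highest share of mitochondrial counts of their groups, 6.87% and 6.15%, against 2.33% to 4.24% in the other libraries. Lane tag 8 was carried by dcKO_Nex-Cre replicates 3 and 4, and lane tag 2 by all other libraries, controls included, so that lane tag 8 holds no control.

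The class III POU factors are encoded by single-exon genes. Upstream sequence is shown for *Pou3f3* and *Pou3f2*, a pair of factors that act together, because they had the highest levels per length after *Mef2c* and hold more CCAAT motifs than most windows of the same size. The 250 bases before the annotated start are from RefSeq on GRCm38.p6, written 5′ to 3′ on the strand of the gene, and CCAAT is in capitals. *Pou3f3* lies on the plus strand (chr1:42695518-42695767) and *Pou3f2* on the minus strand (chr4:22488367-22488616).
Pou3f3: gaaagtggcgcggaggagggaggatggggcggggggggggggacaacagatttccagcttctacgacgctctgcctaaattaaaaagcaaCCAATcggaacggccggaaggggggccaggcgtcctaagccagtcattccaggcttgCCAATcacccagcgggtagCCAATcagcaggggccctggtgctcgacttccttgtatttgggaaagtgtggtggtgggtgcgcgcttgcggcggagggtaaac
Pou3f2: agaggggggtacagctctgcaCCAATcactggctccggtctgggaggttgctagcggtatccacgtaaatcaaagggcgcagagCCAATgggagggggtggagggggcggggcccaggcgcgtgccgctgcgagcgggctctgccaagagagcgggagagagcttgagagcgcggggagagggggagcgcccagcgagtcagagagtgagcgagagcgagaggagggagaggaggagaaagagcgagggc
The *Pou3f3* window holds 3 CCAAT motifs, which begin 160, 103 and 84 bases before the start, and 2.79% of the 32851 windows of this length hold at least 3, counted on both strands. The *Pou3f2* window holds 2, which begin 229 and 166 bases before the start, and 10.1% of windows hold at least 2. Both windows are rich in G and C, at 60.8% and 66.8%, beside a median of 52.4% over all windows. Windows were matched for 7 of the 9 genes, with *Pou3f1* and *Unc5d* unmatched. Among the other matched genes, the first *Mef2c* start has 2 CCAAT motifs in a window of 33.6% G and C and the *Rorb* start at the outer end of the gene has 1, while the windows of *Cux1*, *Cux2* and *Inhba* have 0, and at least 1 is found in 33.8% of windows. The octamer ATGCAAAT, on either strand, is in 0 of the members' windows and in 1.6% of all windows. These matches describe the letters of the windows only.

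*Pou3f3* (ENSMUSG00000045515, Brn1; chr1:42695768-42703176 of GRCm38, plus strand) had the largest log2 fold change of the 9 genes. It was at 304, 285, 311 and 248 CPM in control replicates 1 to 4 and at 326, 355, 332 and 293 CPM in dcKO_Nex-Cre replicates 1 to 4. Of the mutant libraries, dcKO_Nex-Cre replicate 4 alone lay within the range of the controls. The means were 287 ± 28.3 CPM (SD, n = 4) and 326 ± 25.7 CPM (SD, n = 4), and they differed by 0.19 on the log2 scale (standard error, SE, 0.09, 95% interval -0.02 to 0.39, adjusted p = 0.4, edgeR). The two-sided exact permutation test gave p = 0.0857. Without dcKO_Nex-Cre replicate 4 the groups no longer overlapped, as for 27.2% of all genes in that fit, and the log2 fold change was 0.24.

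*Pou3f2* (ENSMUSG00000095139, Brn2; chr4:22482780-22488366, minus strand) was among the steadiest of the 9 genes in the control. It was at 108, 102, 98.8 and 104 CPM in the control and at 107, 114, 105 and 126 CPM in the dcKO_Nex-Cre cortex. The groups overlapped, with dcKO_Nex-Cre replicate 4 the highest of all libraries. On the log2 scale the difference was 0.13 (SE 0.075, 95% interval -0.036 to 0.29, adjusted p = 0.469, edgeR; exact permutation p = 0.114).

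*Pou3f1* (ENSMUSG00000090125, Oct6; chr4:124656807-124660655, plus strand), which is also known from myelinating glia, was the only one of these POU genes with a log2 fold change below 0. It was at 46.0, 44.6, 50.2 and 31.1 CPM in the control and at 40.4, 42.2, 41.7 and 32.5 CPM in the dcKO_Nex-Cre cortex. The replicate numbered 4 was the lowest in each group, and apart from these libraries the mutant values lay below the control values. The fitted log2 fold change was -0.13 (SE 0.14, 95% interval -0.44 to 0.18, adjusted p = 0.698, edgeR; exact permutation p = 0.429). *Gm2164*, an antisense gene, shares 330 exonic bases with *Pou3f1*, and reads of either could not be told apart there, but it had 12.9 counts per library on average against 977 for *Pou3f1*.

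Of the CUT homeodomain factors, *Cux1* (ENSMUSG00000029705; chr5:136248135-136567490, minus strand) was the member with the least spread in the control. It was at 149.9, 148, 153 and 152 CPM in the control and at 176, 181, 158 and 156 CPM in the dcKO_Nex-Cre cortex. All mutant libraries were higher, by little in dcKO_Nex-Cre replicates 3 and 4. The means were 151 ± 2.59 CPM (SD, n = 4) and 168 ± 12.8 CPM (SD, n = 4), which is 111% of the control level. The two-sided exact permutation test gave p = 0.0286, the smallest value that 4 libraries against 4 allow, whereas the log2 fold change of 0.16 (SE 0.07, 95% interval -0.0037 to 0.32) did not pass over all genes (adjusted p = 0.377, edgeR). Across the 17 alternative analyses its adjusted p was between 0.0943 and 0.629. Lane tag moved with this difference. The mean was 179 CPM in the 2 mutant libraries of lane tag 2 and 157 CPM in the 2 of lane tag 8, and within lane tag 2 the log2 fold change was 0.25 (adjusted p = 0.0987, edgeR). Whether the lane or the samples differ cannot be told apart, because lane tag 8 holds no control.

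*Cux2* (ENSMUSG00000042589; chr5:121856366-122050102, minus strand) varied more among libraries of a genotype than between genotypes. It was at 115, 159, 123 and 98.0 CPM in the control and at 101, 112, 108 and 153 CPM in the dcKO_Nex-Cre cortex. Control replicate 2 and dcKO_Nex-Cre replicate 4 stood well above the other libraries of their groups, and the ranges overlapped nearly in full. The means were 124 ± 25.5 CPM (SD, n = 4) and 118 ± 23.4 CPM (SD, n = 4), and they differed by -0.065 on the log2 scale (SE 0.16, 95% interval -0.41 to 0.28, adjusted p = 0.881, edgeR; exact permutation p = 0.657). Without control replicate 2 the sign turned, to 0.086, and without dcKO_Nex-Cre replicate 4 the value was -0.21. These 2 libraries were also those with the most mitochondrial counts and the highest summed level of 6 Cajal-Retzius cell markers, 904 and 726 CPM against 418 to 676 CPM elsewhere, and of 12 interneuron markers, 1131 and 1017 CPM against 860.2 to 1000 CPM. In the control, *Cux2* and the Cajal-Retzius markers followed the same order of libraries, whereas in the mutant they did not, since replicate 2 was second highest for *Cux2* and lowest for the markers. No gene of either list was called by edgeR or was at 0 in all libraries. With edgeR, 0 Cajal-Retzius and 1 interneuron marker had an unadjusted p under 0.05, against 13.6% of all genes. The part of these cells and of mitochondrial counts in the *Cux2* values was not tested. With both libraries left out, the log2 fold change was -0.064.

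*Rorb* (ENSMUSG00000036192; chr19:18930605-19111196, minus strand) encodes a nuclear receptor that marks the granular layer and takes part in the formation of barrels. It was at 21.1, 17.5, 19.4 and 23.7 CPM in the control and at 26.7, 21.7, 21.5 and 19.2 CPM in the dcKO_Nex-Cre cortex. The mutant library with the highest value was replicate 1, and the other 3 lay within the control range. The log2 fold change was 0.13 (SE 0.12, 95% interval -0.14 to 0.40, adjusted p = 0.658, edgeR; exact permutation p = 0.4).

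*Mef2c* (ENSMUSG00000005583; chr13:83504034-83667080, plus strand), a MADS-box factor of neuronal differentiation and synapse development, had the highest level per length of the 9 genes. It was at 719, 617, 783 and 645 CPM in the control and at 850.2, 637, 811 and 807 CPM in the dcKO_Nex-Cre cortex. All mutant libraries except replicate 2 were above every control library. The means were 691 ± 75.0 CPM (SD, n = 4) and 776 ± 94.9 CPM (SD, n = 4), and they differed by 0.17 on the log2 scale (SE 0.11, 95% interval -0.076 to 0.41, adjusted p = 0.520, edgeR; exact permutation p = 0.2). *Mef2c* is also expressed in microglia. The 8 microglial markers summed to 105 to 121 CPM in the control and 109 to 146 CPM in the dcKO_Nex-Cre cortex, with 5 markers above 0 and 3 below and no marker at 0 in all libraries. At an unadjusted p under 0.05 from edgeR, 3 markers were higher and 1 was lower, against 13.6% of all genes in either direction. The groups were separate for 2 markers with the mutant higher and 1 with it lower, against 3.99% and 4.01% of all genes. *C1qb*, a complement subunit, was called higher, as were 0.375% of all genes (log2 fold change 0.46, adjusted p = 0.0422, edgeR). *P2ry12*, a receptor of resting microglia, was lower in every mutant library without being called (log2 fold change -0.57, adjusted p = 0.0596, edgeR). The part of microglia in the *Mef2c* values was not tested.

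The remaining genes encode a secreted factor and a guidance receptor. *Inhba* (ENSMUSG00000041324; chr13:16011851-16031621, plus strand), the subunit of activin A, had the fewest counts, 94 to 243 per library. It was at 5.50, 7.33, 5.38 and 5.02 CPM in the control and at 7.04, 5.48, 3.88 and 6.01 CPM in the dcKO_Nex-Cre cortex. The mutant libraries included the lowest of all 8 and a value close to the highest. On the log2 scale the difference was -0.045 (SE 0.19, 95% interval -0.47 to 0.38, adjusted p = 0.937, edgeR; exact permutation p = 0.886), and its sign turned in 5 of 17 alternative analyses.

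*Unc5d* (ENSMUSG00000063626; chr8:28646717-29219636, minus strand) encodes a receptor of the netrin receptor family that mediates repulsion by FLRT2. It was at 85.1, 71.5, 90.0 and 80.9 CPM in the control and at 85.2, 89.1, 86.4 and 83.9 CPM in the dcKO_Nex-Cre cortex. The mutant libraries were close together and all within the range of the controls. The fitted log2 fold change was 0.073 (SE 0.079, 95% interval -0.10 to 0.25, adjusted p = 0.705, edgeR; exact permutation p = 0.4). *Svet1*, a transcript that lies inside *Unc5d* (chr8:29108837-29112776) and is known as a marker of the subventricular zone, had 25 counts in all 8 libraries together, 0 to 7 per library, and was too low for a comparison.

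**Figure D2:**
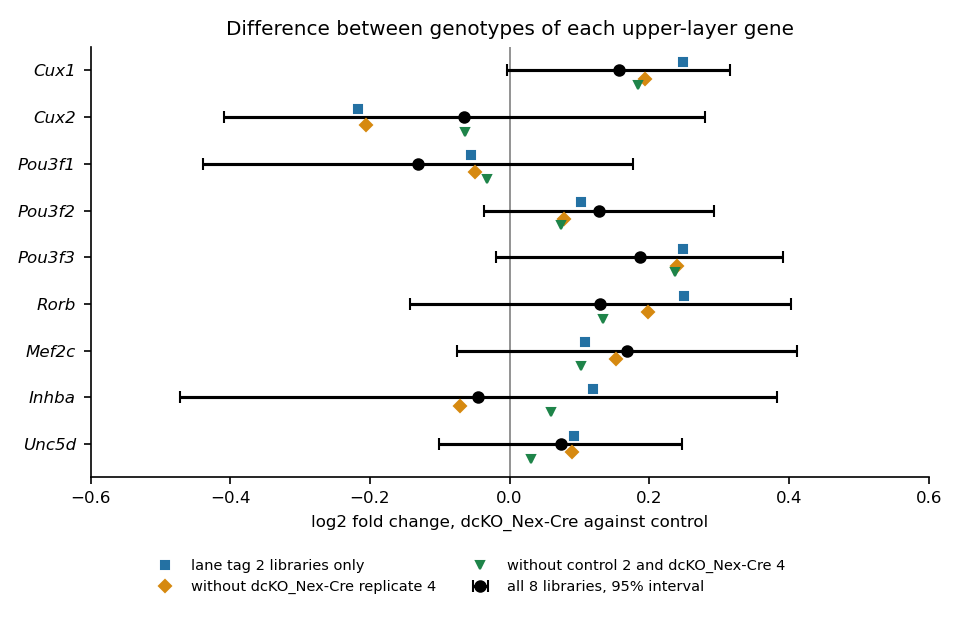
Log2 fold change of each upper-layer gene, dcKO_Nex-Cre against control (horizontal axis). Black points with bars are the values and 95% intervals from all 8 libraries, and coloured symbols are the values from the lane tag 2 libraries only, without dcKO_Nex-Cre replicate 4, and without control replicate 2 and dcKO_Nex-Cre replicate 4. Every interval includes 0, and the lower bound of *Cux1* is closest to it, at -0.0037.

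Levels of different genes were compared per length, as CPM per kilobase of exon (RPKM). In the control, *Mef2c* was at 43.97 ± 4.78 RPKM (SD, n = 4) and *Pou3f3* at 38.7 ± 3.82 RPKM (SD, n = 4), and their libraries overlapped. *Pou3f2* followed at 18.5 ± 0.70 RPKM (SD, n = 4) and was separate from both neighbours in the order. *Cux2* at 12.3 ± 2.53 RPKM, *Pou3f1* at 11.2 ± 2.14 RPKM and *Unc5d* at 8.88 ± 0.85 RPKM followed, and *Pou3f1* overlapped both of its neighbours. *Cux1* lay below *Unc5d* without overlap, at 7.53 ± 0.13 RPKM, and *Rorb* and *Inhba* were the lowest, at 1.84 ± 0.24 and 0.91 ± 0.16 RPKM. The order of the 9 means was the same in the dcKO_Nex-Cre cortex, where *Mef2c* was at 49.4 ± 6.04 RPKM and *Inhba* at 0.88 ± 0.21 RPKM (SD, n = 4). The lengths are those of all annotated exons joined, 20024 bases for *Cux1*, and a gene expressed as a shorter isoform is given too low a level on this scale.

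The spread among libraries of a genotype also differed between the genes. The coefficient of variation in the control was 1.72% for *Cux1* and 3.81% for *Pou3f2*, whereas it was 20.6% for *Cux2*, 19.2% for *Pou3f1* and 17.9% for *Inhba*. In the dcKO_Nex-Cre cortex it was lowest for *Unc5d*, at 2.58%, and highest for *Inhba*, at 23.6%. Single libraries did not stand high or low for all genes together. Control replicate 3 was the highest control library for 5 of the 9 genes, and control replicates 2 and 4 were each the lowest for 4. In the mutant group, replicate 2 was the highest for 4 genes and replicate 4 the lowest for 5, although replicate 4 was the highest for *Cux2* and *Pou3f2*.

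**Figure D3:**
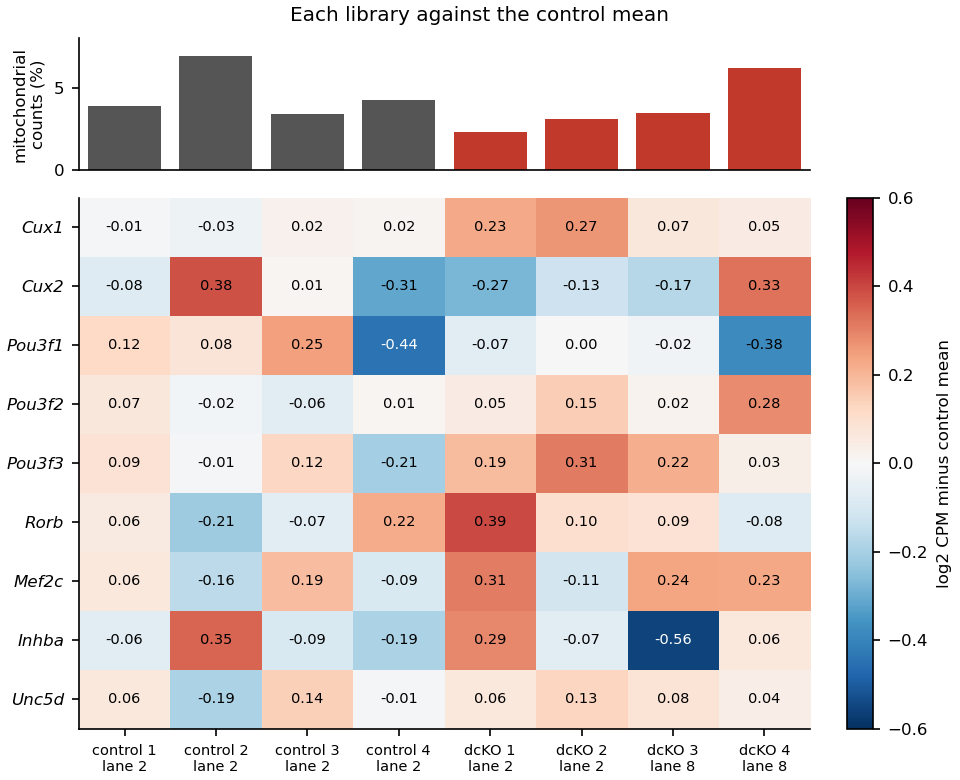
Each library's deviation from the control mean, in log2 CPM, for the 9 upper-layer genes (colour and printed values), under bars of the share of mitochondrial counts in the same library in percent. *Cux2* is high in control replicate 2 and dcKO_Nex-Cre replicate 4, the libraries with the tallest bars, whereas *Pou3f1* is low in replicate 4 of each group.

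The genes with the pattern most like those of the members with the smallest p were found over 11735 genes of at least 5 CPM, by the root mean square difference of centred log2 CPM over the 8 libraries. *Hyal2* and *Gpn2* were closest to *Cux1*, with differences of 0.025 and 0.028. *Ddx19a* and *Vezf1* were closest to *Pou3f3*, at 0.022 and 0.043, and *Slc9a8* and *Ppie* were closest to *Pou3f2*, at 0.046 and 0.048. None of these 6 genes was called between the genotypes, with adjusted p between 0.322 and 0.699 (edgeR).

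A wider list of 24 other markers of superficial neurons, all tested, also held 0 genes with an adjusted p under 0.05 (edgeR), against 0.884% of all genes. While limma-voom called 0, DESeq2's Wald test called 5, against 3.16% of all its genes. In that test *Lmo4*, *Ptprk*, *Scnn1a* and *Wfs1* were higher and *Kitl* was lower. At an unadjusted p under 0.05 from edgeR, 5 genes were higher and 3 were lower in the dcKO_Nex-Cre cortex, where 13.6% of all genes passed in either direction. The median log2 fold change of the list was 0.027, with 14 genes above 0 and 10 below. The groups were separate for 3 genes, all higher in the mutant, *Scnn1a*, *Lmo4* and *Ptprk*, where 3.99% of all genes were higher without overlap. The list held larger differences than the 9 members. *Scnn1a*, a sodium channel subunit found in the granular layer, was at 1.37, 1.09, 1.13 and 1.37 CPM in the control and at 2.78, 3.18, 2.97 and 1.68 CPM in the dcKO_Nex-Cre cortex. All mutant libraries were above every control library, and replicate 4 was the closest to them. Its log2 fold change was 1.1 (SE 0.23, adjusted p = 0.0504, edgeR; exact permutation p = 0.0286, the smallest possible), and it passed in 6 of 17 alternative analyses, with adjusted p between 0.00333 and 0.166. These values rest on few reads, 20 to 96 counts per library.

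*Wfs1*, which encodes a membrane protein of the endoplasmic reticulum, was at 12.5, 7.88, 11.5 and 13.9 CPM in the control and at 24.8, 21, 24.1 and 13.2 CPM in the dcKO_Nex-Cre cortex. Here too, dcKO_Nex-Cre replicate 4 lay apart from the other mutant libraries and within the control range. The log2 fold change was 0.86 (SE 0.21, adjusted p = 0.0940, edgeR; 0.000745 to 0.281 over the alternatives). At the other end of the list, *Otof*, which encodes otoferlin, differed by -0.45 on the log2 scale (SE 0.15, adjusted p = 0.225, edgeR) and *Whrn*, which encodes whirlin, one of -0.43 (SE 0.15, adjusted p = 0.252, edgeR). The libraries of the groups overlapped for both.

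The count of this list moved most with a single library, and also with the test and the filter. With all 8 libraries it was 5 by DESeq2's Wald test, 1 without a filter and 1 with at least 10 counts in every library. Without dcKO_Nex-Cre replicate 4, 7.73% of all genes were called, and of the 24 markers 6 were called higher (*Lmo4*, *Mdga1*, *Mn1*, *Ptprk*, *Scnn1a* and *Wfs1*) and 2 lower (*Kitl* and *Otof*). In the same fit 0 of the 9 members were called, and the smallest adjusted p among them was 0.0979, for *Cux1* (edgeR). *Lmo4*, a LIM-only transcriptional cofactor, was at 259.6, 270.5, 279.6 and 254 CPM in the control and 304, 326, 337 and 338 CPM in the dcKO_Nex-Cre cortex, so that in this gene replicate 4 was the highest mutant library. *Kitl*, the ligand of the Kit receptor, had mean levels of 128 and 98.1 CPM, a log2 fold change of -0.38 (adjusted p = 0.133 over all 8 libraries, edgeR).

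**Figure D4:**
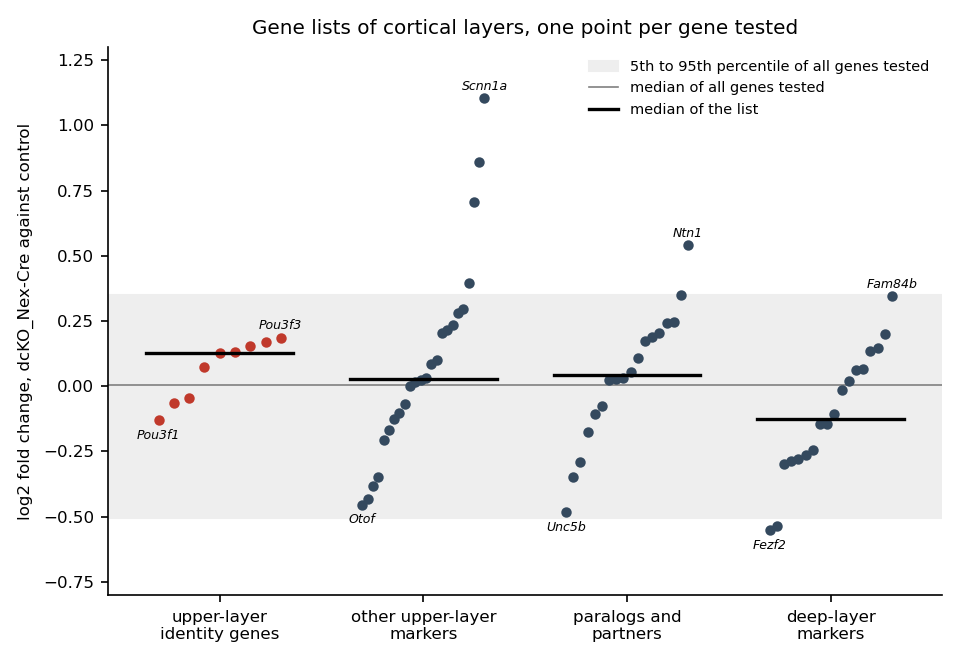
Log2 fold change, dcKO_Nex-Cre against control (vertical axis), of each tested gene of the 9 upper-layer genes (red), 24 other upper-layer markers, 18 paralogs and partners, and 18 deep-layer markers, with the highest and lowest gene of each list named. The 9 genes lie between -0.13 and 0.19, inside the band from -0.50 to 0.35 that holds the 5th to 95th percentile of all genes, while the other lists reach beyond it.

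Among the paralogs, receptors, ligands and inhibitors that belong with the members, 18 genes had enough counts to be tested. None of the 18 was called by edgeR (0.884% of all genes) or limma-voom, whereas DESeq2's Wald test (3.16% of its genes) called *Flrt2* higher and *Unc5a* lower. By edgeR 1 was higher and 3 were lower at an unadjusted p under 0.05, against 13.6% of all genes in either direction. The paralogs were close to the control level. *Pou3f4*, *Rora*, *Mef2a* and *Mef2d* had log2 fold changes of 0.19, 0.024, 0.054 and 0.11. Among the activin genes, *Inhbb*, another activin subunit, had a log2 fold change of 0.20. The type I receptors *Acvr1* and *Acvr1b* had 0.18 and 0.24, and the type II receptors *Acvr2a* and *Acvr2b* had 0.031 and 0.026. *Fst*, which encodes the activin inhibitor follistatin, had a log2 fold change of -0.29 (adjusted p = 0.36, edgeR).

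The genes around *Unc5d* include its ligand, its relatives and the netrins. *Flrt2*, which encodes the repulsive ligand of Unc5d, was at 95.7, 107, 93.9 and 92.8 CPM in the control and at 133, 116, 113 and 134 CPM in the dcKO_Nex-Cre cortex. Every mutant library was above every control library (exact permutation p = 0.0286, the smallest possible), as for 3.99% of all genes. On the log2 scale the difference was 0.35 (SE 0.08, adjusted p = 0.0809, edgeR), and it passed in 3 of 17 alternative analyses, with adjusted p between 0.00737 and 0.261. *Unc5a* was at 54.8, 53.0, 53.5 and 51.3 CPM in the control and at 47.8, 35.1, 44.2 and 39.9 CPM in the dcKO_Nex-Cre cortex. It was lower in all mutant libraries, as were 4.01% of all genes. Its log2 fold change was -0.35 (SE 0.10, adjusted p = 0.139, edgeR; 0.0409 to 0.386 over the alternatives). *Unc5b* had a log2 fold change of -0.48 (adjusted p = 0.207, edgeR; 0.0401 to 0.428 over the alternatives) with overlapping groups, while *Unc5c*, *Dcc* and *Flrt3* were at -0.18, -0.074 and -0.11 and *Ntn4* at 0.25. *Ntn1*, which encodes netrin-1, reached 37.2 CPM in dcKO_Nex-Cre replicate 2 but stayed between 4.55 and 16.6 CPM elsewhere. Its log2 fold change of 0.54 (adjusted p = 0.713, edgeR) was -0.32 without that library and between 0.24 and 1.15 in the other alternatives. In that library 6 striatal markers also summed to 233 CPM, against 62.0 to 101 CPM elsewhere. Between the genotypes, with all libraries, 1 of the 6, *Ppp1r1b*, was called higher (edgeR), as were 0.375% of all genes. None of the 6 was at 0 in all libraries, and the part of striatal tissue in the *Ntn1* value was not tested.

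Beside the superficial markers, 18 deep-layer markers had a median log2 fold change of -0.13, with 7 above 0 and 11 below. None was called by edgeR (0.884% of all genes) or limma-voom, whereas DESeq2's Wald test (3.16% of its genes) called *Crym* and *Fezf2* lower. At an unadjusted p under 0.05 from edgeR, 1 was higher and 5 were lower, against 13.6% of all genes in either direction. The groups were separate for 3 genes, all lower in the mutant, where 4.01% of all genes were lower without overlap. Whether the lists differ from each other was not tested. *Crym*, which encodes a thyroid hormone-binding protein, was at 122, 112, 143 and 109 CPM in the control and at 80.5, 88.2, 95.1 and 71.5 CPM in the dcKO_Nex-Cre cortex, where every library was lower. Its log2 fold change was -0.54 (SE 0.11, adjusted p = 0.0504, edgeR; 0.00129 to 0.176 over the alternatives, 6 of 17 past the threshold). *Fezf2*, the regulator of subcerebral projection neurons, was also lower in every mutant library, with means of 63.0 ± 11.2 CPM (SD, n = 4) and 43.0 ± 8.63 CPM (SD, n = 4), but its log2 fold change of -0.55 had an adjusted p of 0.149 (edgeR; 0.0331 to 0.380 over the alternatives). *Fam84b* and *Foxp2* had the largest log2 fold changes above 0, at 0.35 (adjusted p = 0.256, edgeR) and 0.20 (adjusted p = 0.834, edgeR). *Foxp2* reached 73.7 CPM in dcKO_Nex-Cre replicate 2 but stayed between 19.5 and 38.9 CPM elsewhere. Its log2 fold change was -0.32 without that library and between 0.024 and 0.69 in the other alternatives. That library also had the highest *Foxp1* and *Bcl11b*, 235 and 250 CPM, against 73.1 to 142 and 101 to 172 CPM elsewhere. These genes and *Foxp2* are among the 7 markers above 0. Striatal markers summed to 233 CPM there, against 62.0 to 101 CPM elsewhere, and the part of striatal tissue in these values was not tested.

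The cell makeup of the tissue was followed by marker lists. Over all genes tested, edgeR called 0.884%, and 13.6% had an unadjusted p under 0.05. Of 12 projection neuron markers, 2 were called lower, *Neurod6*, the gene also named Nex, and *Emx1*, and the list summed to 2114 to 2500.2 CPM in the control and 1717 to 2165 CPM in the dcKO_Nex-Cre cortex. Without *Neurod6*, the locus of the Cre allele, the other 11 summed to 1544 to 1749.9 CPM and 1356 to 1754 CPM and overlapped. Of the 12 markers, 2 had a log2 fold change above 0 and 10 below, with a median of -0.17. By edgeR, 3 were lower and 1 was higher at an unadjusted p under 0.05. The higher gene, *Neurod1*, a factor of newborn neurons, lay above the controls in every mutant library, as did 3.99% of all genes. It was not called (log2 fold change 0.36, adjusted p = 0.214, edgeR). Among 5 markers of oligodendrocyte precursors, *Cspg4* was called higher and 4 had an unadjusted p under 0.05, all higher, with sums of 173 to 252 CPM and 252 to 308 CPM. The 8 pan-neuronal markers summed to 8359.8 to 9444 CPM and 8101 to 9734 CPM, and the 11 radial glia and progenitor markers to 2467 to 2882 CPM and 2179.6 to 2589.7 CPM, with 0 called by edgeR in each and 2 and 1 lower at an unadjusted p under 0.05. The 1 radial glia marker was *Fabp7*, a fatty acid-binding protein, with means of 1584 and 1123 CPM (log2 fold change -0.50, adjusted p = 0.114, edgeR), while 7 of the 11 markers were above 0 and their median was 0.058. The 7 astrocyte markers summed to 474 to 682 CPM and 501 to 891 CPM, and the 6 endothelial markers to 106 to 157 CPM and 134 to 177 CPM, with 0 called. At an unadjusted p under 0.05 from edgeR, 2 astrocyte markers were higher and 0 lower, and 0 endothelial markers passed. Of 6 thalamic markers, 5 were tested and *Prkcd* was called lower, and all 6 summed to 117 to 131 CPM and 92.3 to 108 CPM. *Slc17a6*, which is also on the projection neuron list, gave 56.6 to 71.6 CPM and 43.8 to 58.8 CPM of these sums. The sums are thus not those of thalamic tissue alone. Of 5 choroid plexus markers, 4 were tested and 0 called, and the 5 summed to 22.3 to 1335 CPM in the control and to 3.99 to 557 CPM in the dcKO_Nex-Cre cortex. No gene of these lists was at 0 in all libraries, and their part in the values of the upper-layer genes was not tested.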

How the data were processed

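RNA-seq libraries from total RNA of P1 cortex (TRIZOL, TruSeq RNA v2, which does not mark strand) were analysed, 4 control and 4 dcKO_Nex-Cre. The sample titles, which gave the groups, say control and mutant only. That the mutant is dcKO_Nex-Cre was taken from the authors' paper. Unnormalized counts of reads for each Ensembl gene were deposited by the authors, 1 file per library, with mm10 named in the submitters' processing notes. The aligner, counting program and annotation are not given in the sources used here. Names, positions and exon lengths came from GENCODE M21 (GRCm38), which matched 48349 of 48709 identifiers.

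In R 4.3.3, the counts were tested with edgeR 4.0.16 (filterByExpr, TMM, robust quasi-likelihood F test, two-sided, no covariates). Benjamini-Hochberg adjustment was made over all 16287 tested genes, and genes with an adjusted p under 0.05 are called. CPM is the count divided by the TMM-scaled library size, as edgeR gives it, and RPKM is CPM per kilobase of exon. Intervals are 95% intervals of the fitted log2 fold change. Single genes were also compared by an exact permutation test over all 70 regroupings. Alternatives were DESeq2 1.42.0 size factors and Wald test, limma-voom (limma 3.58.1), no filter, at least 10 counts in every library, the replicate number as a block, lane tag 2 only, lane tag as covariate, each library left out, and, chosen after seeing the data, both libraries with the most mitochondrial counts left out. The methods were run on simulated counts with the same dispersion for every gene and larger changes than those of the members. That run did not address small differences or libraries that stand apart. Python 3.11.15 was used for tables and figures, with pandas 2.3.3, SciPy 1.17.1 and matplotlib 3.10.9.

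The members and lists were chosen with earlier results of these data known. Named genes are the members, the deleted genes, genes of the 3 layer and partner lists with an adjusted p under 0.05, the 2 highest and 2 lowest log2 fold changes of each of these lists, and the 2 genes most like each of the 3 members with the smallest p. Other genes of the lists were named after their values were seen. The sources do not say whether libraries of a group come from separate animals, so p-values measure the spread between these samples. Libraries within each genotype differed by more than counting noise in a chi-square test (3.77 or more per degree of freedom). Intervals cover the spread between libraries, and depth ranged from 17958641 to 35191912 counts.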

Additional observations from a re-analysis of the deposited data

Results flagged for a closer look

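For the members, other named genes and marker lists, 84 sets of 4 library values, each within a genotype, were searched for a library far from the other 3. Such a library was found in 5, and chance gives about 1 in 20, or 4.2. No member was among them. In control replicate 2, interneuron markers summed to 1131 CPM (942.6 to 966 CPM in the other control libraries), oligodendrocyte precursor markers to 173 CPM (244 to 252 CPM) and endothelial markers to 106 CPM (150.1 to 157 CPM). In dcKO_Nex-Cre replicate 2, striatal markers summed to 233 CPM (77.2 to 91.2 CPM in the other mutant libraries) and choroid plexus markers to 557 CPM (3.99 to 15.4 CPM). Of the members, *Cux2* and *Inhba* had their highest control value in control replicate 2, and *Cux1*, *Pou3f1*, *Pou3f3* and *Unc5d* their highest mutant value in dcKO_Nex-Cre replicate 2.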

How the results depend on the processing

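In all 17 alternatives 0 of the 9 upper-layer genes were called. Their log2 fold changes kept their direction in 146 of 153 comparisons with the value from all libraries. *Inhba* turned to 0.12 within lane tag 2, 0.12 with lane tag as covariate, 0.059 without the 2 libraries of most mitochondrial counts, 0.091 without control replicate 2 and 0.096 without dcKO_Nex-Cre replicate 3, and *Cux2* turned to 0.086 without control replicate 2 and 0.0059 without dcKO_Nex-Cre replicate 1. With each library left out, the log2 fold changes were 0.12 to 0.19 for *Cux1*, -0.21 to 0.086 for *Cux2*, -0.26 to -0.047 for *Pou3f1*, 0.078 to 0.16 for *Pou3f2*, 0.12 to 0.24 for *Pou3f3*, 0.031 to 0.21 for *Rorb*, 0.12 to 0.25 for *Mef2c*, -0.18 to 0.096 for *Inhba*, 0.021 to 0.12 for *Unc5d*, -0.63 to -0.47 for *Smarcc1* and -0.87 to -0.77 for *Smarcc2*. The count of genes called, 144 with all libraries, was 494 with DESeq2's Wald test, 259 without a filter, 54 with the replicate block, 248 within lane tag 2, 52 with lane tag as covariate and 1794 without both libraries of most mitochondrial counts, and 18 to 1278 with each library left out, the highest without dcKO_Nex-Cre replicate 4 and at most 87 otherwise. With at least 10 counts in every library it was 146. Of the genes tested in each fit, 3.16% were called with DESeq2's Wald test, 7.73% without dcKO_Nex-Cre replicate 4 and 11% without both libraries. The list counts that follow are to be read beside these shares. Of the other upper-layer markers, 5 were called with DESeq2's Wald test, 1 without a filter, 1 with at least 10 counts, 2 within lane tag 2, 7 without both libraries and 0 to 8 with each library left out. Of the paralogs and partners, 2 were called with DESeq2's Wald test, 1 within lane tag 2, 3 without both libraries and 0 to 3 with each left out. Of the deep-layer markers, 2 were called with DESeq2's Wald test, 1 without a filter, 1 with at least 10 counts, 2 with the replicate block, 2 without both libraries and 0 to 1 with each left out. Groups were separate for 2 members within lane tag 2 (*Cux1* and *Pou3f3*; 35.9% of all genes) and 2 without both libraries (the same pair; 33.7%), and for 1 to 2 with each library left out (9.71% to 27.2% of all genes). *Smarcc1* was not called with the replicate block (-0.54), within lane tag 2 (-0.46) or with lane tag as covariate (-0.46). Whether replicate numbers pair the libraries is not known. Deviations from the group means of same-numbered libraries correlated at 0.13, 0.018, 0.13 and -0.14, and those of differently numbered libraries at -0.29 to 0.37. These correlations cannot decide it, because weak correlations do not exclude a pairing. Apart from the counts above, the block changed no call of a member. Permutation tests could not pass with a library left out, where the smallest p is 0.0571. Depth limits *Inhba*, with 94 to 243 counts per library, and also *Scnn1a*, with 20 to 96. The cause of these shifts was not tested.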
